A study of Homo sapiens with 2 samples.

Results

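The genes of the proteasome were followed here in A375 melanoma cells after depletion of THOC2. Members were all array probes whose gene symbol consists of PSM, 1 letter from A to G and a number, which gave 71 probes of 48 genes, out of 58199 probes and 34757 gene symbols on the array. The 48 genes were 14 genes of the 20S core, 17 of the 19S regulatory particle, 3 immunoproteasome genes, 4 activators, 1 inhibitor, 7 assembly chaperones and 2 core subunits made in single tissues (PSMA8 and PSMB11). All 48 symbols were current symbols in RefSeq.

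A375 is an established human melanoma cell line. RNA of 1 culture transfected with a control siRNA (NC) and of 1 culture transfected with an siRNA against THOC2 (si-THOC2) was hybridized to 1 one-colour Agilent array each, 48 h after transfection according to the labels. There was 1 array per group, so the spread between cultures is unknown and no test between the groups was possible. THOC2 is a subunit of the THO complex, which takes part in the export of mRNA from the nucleus. The methods list several siRNAs against THOC2, and the one used for the arrays is not named. The labels and the methods also differ in the growth medium. The labels contradict each other, since the source field of each sample gives the other group than its title and description. Titles and descriptions were followed, and both THOC2 probes were lower on the array that they assign to si-THOC2. The first probe (chrX:122734486-122734545 of hg19) went from a signal of 136 in the NC group to 40.9, or a log2 fold change of -1.42 after the scaling explained below. The second (chrX:122747960-122748019) went from 67.3 to 35.1 (-0.63).

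The proteasome is the protease of the cytoplasm and nucleus that degrades proteins tagged with ubiquitin. Its 20S core is a barrel of stacked rings, in which alpha subunits (PSMA genes) form the gates at the ends and beta subunits (PSMB genes) hold the cutting sites inside. The 19S particle (PSMC and PSMD genes) binds the tagged protein, removes the ubiquitin and threads the chain into the barrel. In cells exposed to interferon, the beta subunits PSMB8, PSMB9 and PSMB10 take the place of the standard catalytic subunits, which alters the peptides made for display on MHC class I molecules. Tumour cells depend on the proteasome, and inhibitors of its core are used as cancer drugs.

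All signals below are the scanner software's processed signals, an intensity after subtraction of background, and a pair of signals gives the NC array first and the si-THOC2 array next. A log2 fold change is the si-THOC2 array minus the NC array after each array was reduced by the 75th percentile of its log2 signals, which was 6.62 with NC and 6.31 with si-THOC2. These percentiles correspond to signals of 98.1 and 79.2, so a gene whose signal fell in the same ratio has a log2 fold change of 0. Before this scaling, 60 of 61 proteasome probes had a lower signal on the si-THOC2 array, with a median ratio of 0.835. After it, 20 of 61 were below 0 and their median was 0.05. In bulk RNA, fewer cells and less RNA per cell cannot be told apart. Nor can either be told apart from differences between the arrays in labelling, hybridization or scanning. The source of the lower signals was not tested, and scaling removes a difference that all genes share.

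The A375 label was checked against markers. Of 10 markers of melanoma and the melanocyte lineage, 6 were well above background on both arrays, among them SOX10 (6196 with NC and 5196 with si-THOC2) and MITF (274 and 215), while the pigment cell genes PMEL, MLANA, TYR and TYRP1 were not. Of 4 keratinocyte markers 2 were measured on both arrays, and the summed signal of that list was 32396 with NC and 20734 with si-THOC2, nearly all of it from KRT10. Leukocyte markers were measured for 3 of 4 genes with no signal over 37.4, endothelial markers for 1 of 3 and fibroblast markers for 0 of 3. The part of these markers in the results below was not tested. By the scanner software's call, 42.3% of probes on the NC array and 39.4% on the si-THOC2 array were well above background.

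No proteasome gene reached a change of 1.3-fold. Of the 71 probes, both arrays measured 61 well above background and neither measured the other 10, and 46 of 48 genes had at least 1 measured probe. Measured probes of a gene were averaged. Of the 46 genes, 0 were lower and 0 were higher by 1.3-fold or more (a log2 fold change of 0.38). Among all 17514 genes compared, 12.7% were lower and 11.4% higher by that size. At the 2-fold threshold of the methods, 0 of the 46 genes were called in either direction, against 3.34% lower and 2.96% higher of all genes. Most proteasome genes were bright, and 43 of the 46 had a mean log2 signal over 8. Among the 6987 genes of the array with such signals, 2.86% were lower and 5.11% were higher by 1.3-fold, and 0.2% were lower and 0.2% higher by 2-fold.

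The values of the family lay close together. Log2 fold changes ran from -0.30 for PSMG2 to 0.22 for PSMC4, with a median of 0.04 and an SD of 0.11 over 46 genes. For the 43 bright proteasome genes the SD was 0.10 and 40 were within 0.2 of 0, and for all 6987 bright genes the SD was 0.22 and 68.2% were within 0.2. These bright genes were not matched to the proteasome genes in signal, and the spread between repeated spots falls with signal. Its median SD was 0.06 for log2 signals from 8 to 10 and 0.04 over 12. Whether the narrow spread is particular to the family was not tested. In the scaling used here 13 proteasome genes were below 0 and 33 above. Of all 6987 bright genes, 2587 were below 0 and 4400 above. With quantile normalization 27 of the 46 proteasome genes were below 0, with lowess centring 27 and with normexp background correction 33. For these reasons no direction is given for the family. The sign of 22 genes was the same in all 9 alternative settings, 10 of them below 0 and 12 above. Not all of these settings could change a sign. Requiring signal above background on both arrays, or setting dim signals at the detection limit, returns the same values by construction. This is because all 61 compared probes were measured on both arrays. Median scaling moved none of the 46 genes by more than 0.05, and the authors' normalized values nearly repeat quantile normalization.

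**Figure D1:**
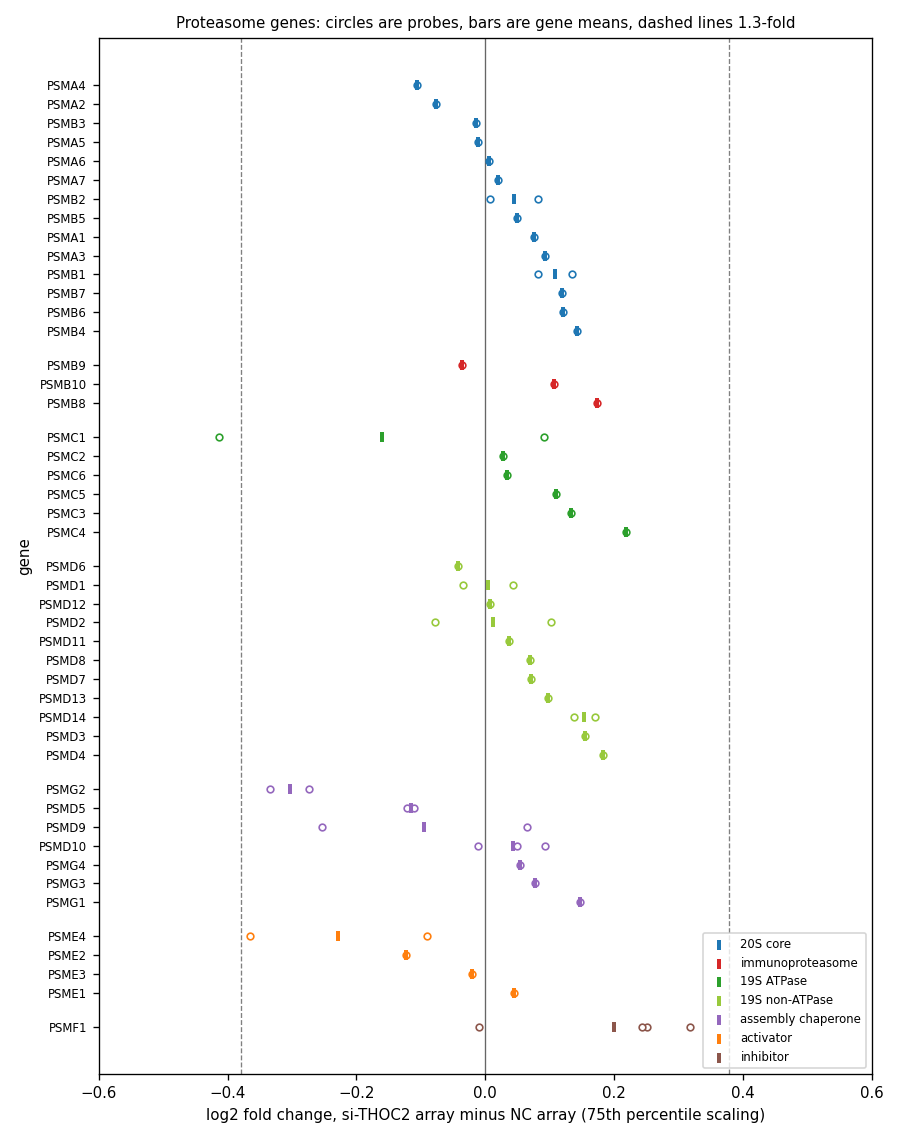
Log2 fold change (x axis, si-THOC2 array minus NC array) of the 46 measured proteasome genes (y axis), grouped and coloured by class, with circles for single probes, bars for gene means and dashed lines at 1.3-fold. All gene means lie inside the dashed lines, and 1 probe, of PSMC1, lies outside them at -0.41.

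How large a difference the arrays can resolve was seen in repeated spots. Probes printed on several spots with a log2 signal over 8 had a median SD of the log2 fold change of 0.05 (244 probes). This SD was 0.10 for 36 probes with a log2 signal from 6 to 8 and 0.17 for 5 probes from 4 to 6. It covers differences between spots in the ratio of the arrays, taken spot by spot. It leaves out differences between cultures and differences in labelling or hybridization that a whole array shares. A pair of 19S genes, PSMD6 and PSMD7, had a probe with 10 spots on each array. The signal of PSMD6, a structural subunit of the lid of the 19S particle (chr3:64004291-64004350), ran from 2623 to 2985 with NC (median 2843) and from 2054 to 2383 with si-THOC2 (median 2236). Its spots did not overlap before scaling, and after scaling the log2 fold change had a mean of -0.04 and an SD of 0.06, from -0.12 to 0.07. PSMD7, another lid subunit (chr16:74340102-74340161), had 12545 to 14208 with NC (median 13671) and 10982 to 11843 with si-THOC2 (median 11530). Here the mean was 0.07 and the SD 0.07, from -0.03 to 0.23. For both genes the spots thus lay on both sides of 0 once the arrays were scaled, with most spots of PSMD6 below 0 and most of PSMD7 above. Before scaling, the 75th percentile signal of the whole array was also lower with si-THOC2 (79.2 against 98.1). How many other repeated probes had spots that did not overlap was not counted, so the lack of overlap is not particular to these genes.

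**Figure D2:**
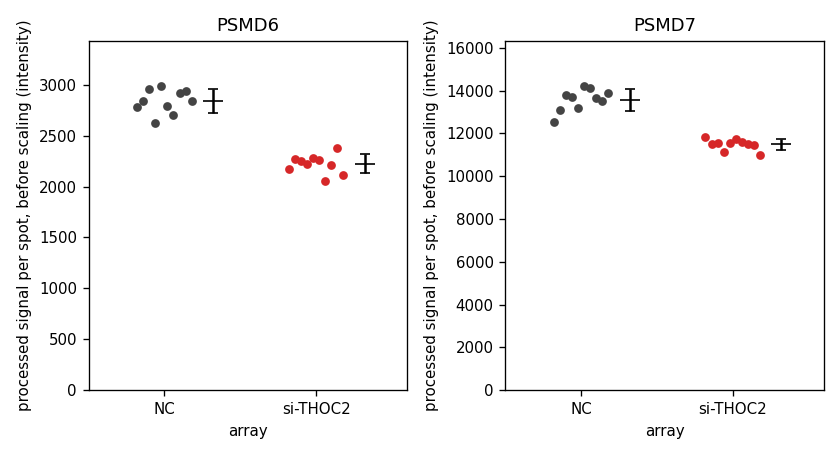
Processed signal (y axis, intensity before scaling) of the 10 spots of the PSMD6 probe and the 10 spots of the PSMD7 probe on the NC array and on the si-THOC2 array (x axis), with the mean and SD over spots beside them. The spots of the arrays do not overlap before scaling, with medians of 2843 and 2236 for PSMD6 and of 13671 and 11530 for PSMD7.

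The 20S core showed small values in every subunit. All 14 genes were measured, and their log2 fold changes ran from -0.11 to 0.14, with a median of 0.05 that became -0.02 with quantile normalization and -0.08 with normexp. The 7 alpha genes had a median of 0.01 with 3 genes below 0, and the 7 beta genes had a median of 0.11 with 1 gene below 0. The catalytic subunits were read by 1 probe each. PSMB5, which carries the chymotrypsin-like activity and is the main target of bortezomib, went from a signal of 14985 in the NC group to 12508 with si-THOC2 (0.05 on the log2 scale, chr14:23495485-23495544). PSMB6, the caspase-like subunit, had 21103 and 18517 (0.12). PSMB7, the trypsin-like subunit, had 56471 and 49469 (0.12). All 3 catalytic genes lay near the median of all bright genes, 0.06, and the sign of each turned with normexp (-0.07 for PSMB5, -0.02 for PSMB6 and -0.01 for PSMB7).

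Among the other core genes, PSMB4 was highest. This non-catalytic beta subunit went from a signal of 48583 in the NC group to 43286 with si-THOC2, with a scaled log2 fold change of 0.14 that stayed above 0 in all alternatives (0.01 at its lowest). The lowest values belonged to the alpha subunits PSMA4 and PSMA2 and the beta subunit PSMB3. PSMA4 had 2811 and 2108, a log2 fold change of -0.11 (chr15:78837978-78838037). PSMA2 had 5040 and 3855 (-0.08), and PSMB3 had 10131 and 8097 (-0.01). All 3 remained below 0 in the 9 alternatives, at -0.21 at the lowest (PSMA2 with normexp). The other 7 core genes lay between -0.01 (PSMA5) and 0.11 (PSMB1).

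In the 19S particle, 15 of 17 genes were above 0 in the scaling used here and none passed 1.3-fold. The median was 0.07, with 0.07 for the 6 ATPases and 0.07 for the 11 other subunits, and it became -0.0045 with quantile normalization and -0.04 with normexp. Of all 6987 bright genes, 4400 were above 0 in the scaling used here, and their median was 0.06. PSMC4, an ATPase of the ring that unfolds substrates, had the highest value of the whole family in the scaling used here. PSMF1 was highest with quantile normalization, the authors' values and lowess centring, PSMG1 with centring by block and PSMD5 with no detection filter. The signal of PSMC4 went from 6908 in the NC group to 6487 with si-THOC2, with a scaled log2 fold change of 0.22 (chr19:40485988-40486047). PSMD4, a receptor for ubiquitin chains, followed with 26954 and 24686 (0.18), and the structural subunit PSMD3 had 1133 and 1018 (0.16). These 3 genes were above 0 in all alternatives, with lowest values of 0.11, 0.08 and 0.04. Near the lower end lay PSMD6, described above, and PSMD1, a scaffold subunit of the base. PSMD1 was read by a probe at 457 and 380 (0.04) and another at 3206 and 2525 (-0.03).

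PSMC1, another ATPase of the ring, was the gene whose probes differed most. The probe at chr14:90738829-90738888 went from a signal of 7721 in the NC group to 6635 with si-THOC2, with a scaled log2 fold change of 0.09. The probe at chr14:90738692-90738750 had 1243 and 753, a log2 fold change of -0.41, and was the only one of 61 proteasome probes past 1.3-fold. Both lie on the plus strand and are assigned to the same gene by the deposited annotation. They differ by 0.50, against an SD between spots of 0.05 at their signals, and the gene mean of -0.16 describes neither of them. The blocks of spots around them had medians of 0.14 and 0.10, both above 0. Where both arrays gave a log2 signal over 8, 2.73% of all probes were lower by 1.3-fold, against 1 of 54 proteasome probes.

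**Figure D3:**
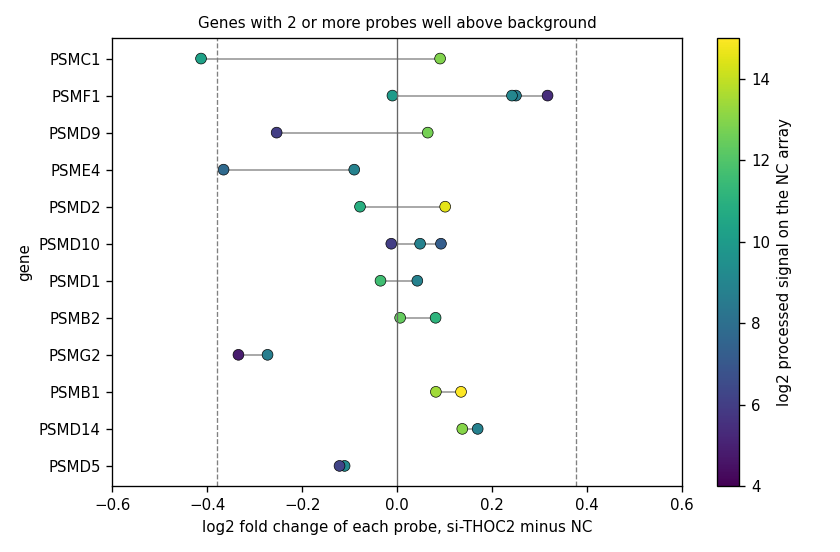
Log2 fold change of each probe (x axis, si-THOC2 minus NC) for the 12 genes with more than 1 measured probe (y axis), coloured by the log2 signal on the NC array, with dashed lines at 1.3-fold. The probes of PSMC1 lie at -0.41 and 0.09, and in 8 of the 12 genes the probes lie within 0.2 of each other.

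The immunoproteasome was expressed in A375 cells and moved little. All 3 genes were measured by 1 probe each and lay between -0.04 and 0.17, with a median of 0.11. PSMB8, which takes the place of PSMB5, went from a signal of 603 in the NC group to 548 with si-THOC2, with a scaled log2 fold change of 0.17 (chr6:32810023-32810490, a match that runs over more than the length of a probe). PSMB9, which takes the place of PSMB6, had 1645 and 1294 (-0.04, chr6:32823918-32823977). PSMB10, which takes the place of PSMB7, had 16777 and 14568 (0.11, chr16:67968412-67968471). PSMB8 and PSMB10 were above 0 in all alternatives, with 0.06 and 0.01 at the lowest, and PSMB9 ran from -0.16 with normexp to 0.07 when each block of the array was centred. The probe of PSMB9 lay in a block whose median was -0.11 and in which 8.12% of probes were called lower by 2-fold or more. TAP1, a peptide transporter gene that lies head to head with PSMB9, had 5973 and 4729, a log2 fold change of -0.03 close to that of its neighbour.

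The promoters of these genes are shown because interferon is known to control them through a short element. RefSeq promoter windows of GRCh38.p14, from 250 bases before to 50 after the start, were found for 42 of the 48 genes and not for PSMA7, PSMB1, PSMB6, PSMB7, PSMD4 and PSMG3. The motif searched was 2 copies of GAAA with any 2 bases between them, on both strands. It was present for 4.376% of 27305 genes and for 7 of the 42 proteasome genes (16.67%), namely PSMB8, PSMB10, PSME1, PSME2, PSMA4, PSMB4 and PSMG4, and for none of the 19S genes. Below, capitals mark the motif. The first 4 are the 120 bases before the start of PSMB10 (chr16:67936851-67936970, minus strand), PSME2 (chr14:24146611-24146730, minus strand), PSMB4 (chr1:151399453-151399572, plus strand) and PSMB9 (chr6:32854072-32854191, plus strand), which holds no match and is shown for contrast. The last 2 are 30 bases around the motif of PSMB8 (chr6:32844032-32844061, minus strand) and PSME1 (chr14:24136189-24136218, plus strand), where it is read on the opposite strand.
PSMB10: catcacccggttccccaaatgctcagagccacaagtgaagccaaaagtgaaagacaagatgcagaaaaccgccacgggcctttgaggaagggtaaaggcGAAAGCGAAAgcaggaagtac
PSME2: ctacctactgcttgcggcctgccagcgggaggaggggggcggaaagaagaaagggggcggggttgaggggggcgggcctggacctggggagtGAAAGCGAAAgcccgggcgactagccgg
PSMB4: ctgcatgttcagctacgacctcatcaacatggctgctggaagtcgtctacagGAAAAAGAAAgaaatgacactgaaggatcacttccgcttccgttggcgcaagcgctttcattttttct
PSMB9: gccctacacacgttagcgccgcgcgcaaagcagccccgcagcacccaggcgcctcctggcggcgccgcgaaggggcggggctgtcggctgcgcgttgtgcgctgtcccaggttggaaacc
PSMB8: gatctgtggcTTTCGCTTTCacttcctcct
PSME1: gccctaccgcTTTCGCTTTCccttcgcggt

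PSMB8, PSMB10, PSME1 and PSME2 carried the same letters, GC, between the copies of GAAA when read on 1 strand, and PSMB4 carried AA. Counted with the first transcribed base as 0, the match began at -21 in PSMB10, at -28 in PSME2, at -68 in PSMB4, at -4 in PSMB8 and at 5 in PSME1. The 5 genes with printed matches had log2 fold changes of 0.11, -0.12, 0.14, 0.17 and 0.04 in that order, so genes with the motif lay on both sides of 0. IRF1, a transcription factor that binds such elements, went from a signal of 1299 in the NC group to 849 with si-THOC2, with a scaled log2 fold change of -0.30 (chr5:131819442-131819501). A match of letters is a description of the window and does not show binding.

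A second motif was searched because the NRF factors that raise proteasome genes bind the antioxidant element. The letters TGAC, any 3 bases and GC were present, on either strand, for 16.06% of all genes and for 15 of 42 proteasome genes (35.71%). They occurred in all classes with more than 2 genes, from 2 of 10 core genes with a window to 3 of 4 activators and 4 of 6 assembly chaperones. Both the lowest gene in the scaling used here, PSMG2, and the highest, PSMC4, had a match. No match of this motif overlapped one of the interferon element in these windows.

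Of the 4 activators, which cap the core in place of the 19S particle, 3 were below 0 and none passed 1.3-fold. Their median was -0.07 and stayed below 0 in all alternatives, from -0.20 with normexp to -0.01 with no detection filter. PSME2, the beta subunit of the PA28 cap that interferon induces, went from a signal of 34490 in the NC group to 25551 with si-THOC2, with a scaled log2 fold change of -0.12 (chr14:24612577-24612636) that ran from -0.27 to -0.05 over the alternatives. PSME1, the alpha subunit of the same cap, had 474 and 395 (0.04, chr14:24606378-24606552). The partners of the cap thus had values on opposite sides of 0 in this scaling. PSME3, the nuclear activator PA28 gamma, had 2237 and 1779 (-0.02).

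PSME4, the large activator PA200 known for its role in the turnover of histones, had the lowest value of the activators. Its mean log2 fold change was -0.23. The probe at chr2:54092559-54092618 went from 454 to 344 (-0.09), and the probe at chr2:54091225-54091284 had 218 and 136 (-0.37). Its remaining probe was not above background on either array. Both measured probes were thus lower, by sizes that differ by 0.28.

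PSMF1, the inhibitor PI31, was the second highest gene of the family in the scaling used here, at 0.20. Of its 5 probes 4 were measured. The probes at chr20:1106195-1106254 and chr20:1115812-1115871 had 399 and 383 (0.25) and 544 and 519 (0.24). The brightest, at chr20:1147718-1147777, went from 1028 to 824 (-0.01). The dimmest, at chr20:1148367-1148426, had 42.4 and 42.7 (0.32), where the SD between spots is larger. The gene mean was above 0 in all alternatives (0.08 to 0.24), but the probes did not share 1 value, and the probe at 0.24 lay in a block in which 19.9% of probes were called higher by 2-fold or more.

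The assembly chaperones, which help build the core and the base and leave the finished particle, were the most spread class. All 7 were measured, with a median of 0.04, an SD of 0.15 and 3 genes below 0. The only 3 proteasome genes with a mean log2 signal of 8 or less, PSMG2, PSMD5 and PSMD10, belong to this class. The spread between spots is larger at such signals, and whether dim probes account for the wider spread of the class was not tested. PSMG2, which pairs with PSMG1 to start the alpha ring, had the lowest value of the family in all settings other than normexp, where PSME2, PSME4, PSMC1, PSMA2, PSMA4 and PSMB9 were lower. Its brighter probe (chr18:12720519-12720578) went from 406 to 271, with a scaled log2 fold change of -0.27. Its dimmer probe (chr18:12658596-12658655) had 28.8 and 18.5, a log2 fold change of -0.33, near the lowest signals well above background (14.7 and 15.9). The mean of -0.30 stayed below 0 in all alternatives, from -0.36 to -0.16.

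Its partner PSMG1 lay at the other end of the class. The probe at chr21:40547401-40547460 went from 7243 to 6469, with a scaled log2 fold change of 0.15. The difference between these partners rested on 2 probes of PSMG2 and 1 of PSMG1. PSMG3 and PSMG4, the second chaperone pair of the alpha ring, had 4950 and 4211 (0.08) and 3073 and 2574 (0.05). PSMD5 and PSMD9, chaperones of the 19S base, had means below 0 (-0.12 and -0.09). The brighter probe of PSMD5 had 608 and 455 (-0.11) and its other measured probe 75.2 and 55.8 (-0.12). PSMD9 had 6617 and 5585 on its brighter probe (0.06) and 63.5 and 43.0 on its dimmer one (-0.25). The probes of PSMD9 thus gave no common direction, and its mean is below 0 through the dimmer probe. PSMD10, also named gankyrin, had a mean of 0.04 over 3 probes.

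The tissue-restricted subunits were not measured. PSMA8, a testis form of an alpha subunit, had signals of 3.02 with NC and 3.31 with si-THOC2, which is not well above background on either array. PSMB11, the catalytic beta subunit of the thymus, had 3.01 and 3.24 on one probe and 3.91 and 3.25 on the other, again not well above background. No fold is given for these genes.

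**Figure D4:**
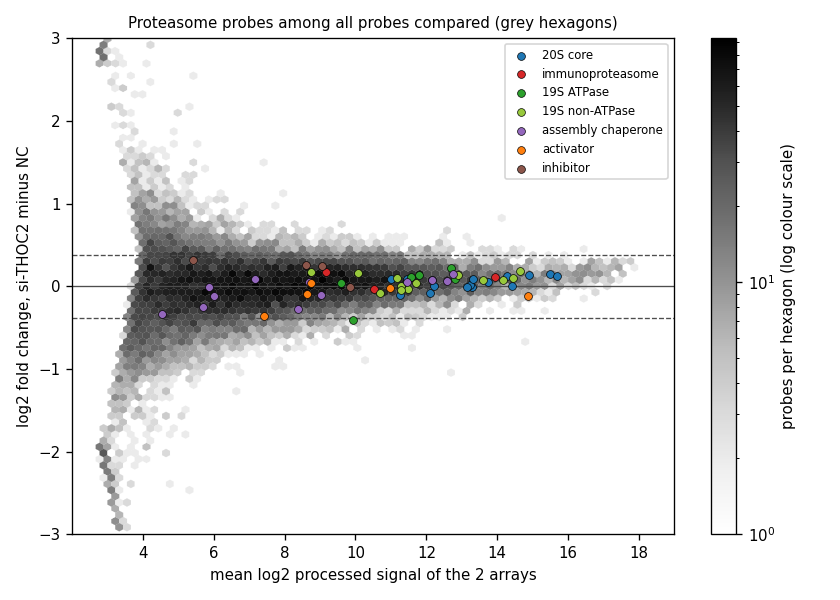
Log2 fold change (y axis, si-THOC2 minus NC, drawn from -3 to 3) against the mean log2 processed signal of both arrays (x axis) for all probes compared, as grey hexagons shaded by the number of probes on a log scale, with the 61 proteasome probes as circles coloured by class and dashed lines at 1.3-fold. The proteasome probes lie mostly at high signals, where the spread of all probes is narrow.

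Genes that work with the proteasome were looked at beside it. Of 17 partner genes (regulators, receptors and recycling enzymes outside the PSM names) 15 were measured, 4 below and 11 above 0, with a median of 0.09. By 1.3-fold, 2 of the 15 were called higher and 1 lower, against 11.4% higher and 12.7% lower of all genes compared. These counts are too small to set the partners apart from all genes. AKIRIN2, needed for the import of proteasomes into the nucleus, was past 1.3-fold, with 486 on the NC array and 533 on the si-THOC2 array and a log2 fold change of 0.44 (chr6:88391377-88391436). With normexp it was at 0.28 and no longer past that fold. UBE3C, a ubiquitin ligase of the 19S particle, was at 0.38 and also counted as higher, but its bright probe with 520 and 451 was at 0.10 and its dim probe with 15.9 and 20.4 at 0.66. It lost the call with quantile normalization (0.36), the authors' normalized values (0.36), centring by block (0.375) and normexp (0.12). ZFAND2A, a stress-induced proteasome binder, had 1051 and 735 (-0.21). NFE2L2, which encodes NRF2, was the 1 partner counted as lower, since its signal of 18.2 with NC met a signal not well above background with si-THOC2. The bound on its fold was under 1, so no fold is given. NFE2L1, a factor that raises proteasome genes when the proteasome is impaired and that was picked after its value was seen, had 8786 and 6801 (-0.06). USP14 and DDI2 were not above background.

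The ubiquitin genes and shuttle proteins, which supply and carry the tag, had a higher median than the proteasome. Of 14 genes 12 were measured, 1 below and 11 above 0, with a median of 0.24, against 0.04 for the proteasome genes and 0.06 for all bright genes, and none passed 1.3-fold. This median kept its sign in all alternatives, with 0.12 at its lowest under normexp. UBA1, the enzyme that activates ubiquitin, had 5018 and 4966 (0.29). Its signals before scaling were thus nearly equal on the arrays, while 60 of 61 proteasome probes were lower on the si-THOC2 array before scaling. UBQLN2 had the lowest value, with 615 and 473 (-0.07), and RAD23B followed at 0.04 with probes at 0.33 and -0.24. UBA6 and DDI1 were not above background.

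The genes that use the peptides made by the proteasome were mostly below 0. Of 17 genes of MHC class I antigen processing, all were measured, 13 below and 4 above 0, with a median of -0.03 that ran to -0.11 with normexp, and none passed 1.3-fold in the scaling used here. IRF1 (-0.30) and ERAP2, a peptidase that trims peptides, were lowest. ERAP2 went from 28.9 to 20.3 (-0.20). CALR, a chaperone of MHC class I molecules, was highest with 32768 and 32330 (0.29). The probes of IRF1 and CALR lay in a block with a median of 0.15, in which 12.4% of probes were called higher by 2-fold or more. With each block centred, IRF1 was at -0.46, past 1.3-fold, and CALR at 0.14. NLRC5, an activator of MHC class I genes, followed at 0.14, with probes at 0.56 and -0.29 that gave no common direction.

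Scaling decided the sign of most lists. The median of all genes compared was 0.02 here and lay between -0.01 and 0.04 in the alternatives other than the one with no detection filter, where it was 0.24. Most proteasome genes are bright, and the median of all bright genes shifted too. It was 0.061 here, 0.005 with quantile normalization and the authors' values, 0.004 with lowess centring and -0.038 with normexp. The family had 0.044 here, then -0.009 with both of the former, -0.022 with lowess centring and -0.064 with normexp. The medians of the 20S core, the 19S particle, the assembly chaperones and the whole family were above 0 with scaling by percentile or median and below 0 with quantile normalization, the authors' normalized values, lowess centring and normexp. Only the activators (below 0), the immunoproteasome genes, the ubiquitin list (both above 0) and the MHC class I list (below 0) kept the sign of their median in all settings run. The immunoproteasome median was only 0.02 with quantile normalization, the authors' values and normexp, and 0.01 with lowess centring. There it was the value of the 1 probe of PSMB10, where the SD between spots was 0.05. PSMB9 was below 0 in 8 of the 9 alternatives, so no direction is given for this class.

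**Figure D5:**
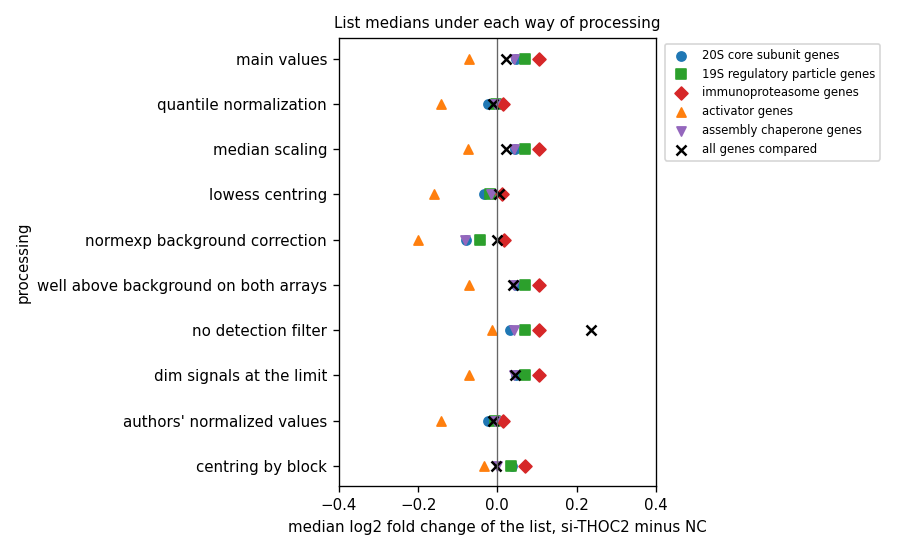
Median log2 fold change (x axis, si-THOC2 minus NC) of 5 classes of proteasome genes, as coloured symbols, and of all genes compared, as crosses, under the values reported and 9 alternatives (y axis). The activator median lies below 0 in every line. The core, the 19S particle and the chaperones fall below 0 with quantile normalization, the authors' values, lowess centring and normexp. The median of all bright genes, which is not drawn, went from 0.06 in the values reported to -0.04 with normexp. The immunoproteasome median lies above 0 in every line, but at only 0.01 to 0.02 in those same settings.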

How the data were processed

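The authors deposited scanner output of 2 Agilent SurePrint G3 arrays made with Agilent Feature Extraction 10.7.1.1 per the labels. The intensity values deposited by the authors are processed signals per spot, made by background subtraction and correction of trends. The authors also deposited normalized log2 values, whose sorted values differ by at most 0.000788 between arrays, and a table of their own fold changes, which was not used. Columns of other samples numbered 0.

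Control spots and outlier-flagged spots were left out (147 and 168 non-control spots), and no spot was saturated. Log2 signals were averaged over the spots of each probe and reduced by the array's 75th percentile. A probe was compared where 1 array or both called it well above background (25345 probes, 22207 on both). A gene is the mean of its compared probes, and 1.3-fold was the threshold. The methods' Student's test needs replicates and was not run. With 1 array per group, the number of arrays limits the precision.

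The members and gene lists were chosen with earlier results of these data known. Named were THOC2, all immunoproteasome, activator, inhibitor and tissue-restricted genes, PSMB5, PSMB6 and PSMB7, members past 1.3-fold or with probes over 0.5 apart, the 3 lowest and 3 highest of the 20S, 19S and chaperone lists, the 2 lowest and 2 highest of 3 other lists and any past 2-fold, and TAP1. 1 gene that this rule names is not reported here. Alternatives were quantile normalization, median scaling, lowess centring (span 0.3), normexp (offset 50), 3 treatments of dim probes, the authors' values, centring by blocks of 16 by 8, probes for genes and other folds. SEM1 and ECPAS were matched as SHFM1 and KIAA0368. The comparison was tested on simulated data. Python 3.11.15, numpy 2.4.6, pandas 2.3.3, statsmodels 0.14.6, R 4.3.3 and limma 3.58.1 were used. Probe positions are those of the deposited hg19 annotation, and exons were not analysed here.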

Additional observations from a re-analysis of the deposited data

How the results depend on the processing

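Of the 46 proteasome genes, 0 were lower by 1.3-fold in each of the 9 alternative settings. A threshold of 1.2-fold in the scaling reported gave 1 lower (PSMG2). PSMC1 (-0.28) and PSME4 (-0.28) also passed 1.2-fold with centring by block, and with normexp PSME2 (-0.27) passed it in place of PSMG2 (-0.16). Counting probes in place of genes gave 1 lower (PSMC1). With no detection filter, 2 of all 48 genes were higher, PSMD5 and PSMA8, which is not among the 46, both through probes not well above background. With quantile normalization the medians were -0.023 for the 20S core, -0.0045 for the 19S particle, 0.016 for the immunoproteasome, -0.14 for activators, -0.0086 for the family, 0.019 for partners, 0.15 for ubiquitin genes and -0.091 for MHC class I genes. The authors' normalized values gave -0.023, -0.0053, 0.016, -0.14, -0.0088, 0.019, 0.15 and -0.090 in the same order. Lowess centring gave -0.034, -0.017, 0.013, -0.16, -0.022, 0.023, 0.14 and -0.097, with -0.015 for assembly chaperones. Normexp gave -0.078, -0.043, 0.017, -0.20, -0.064, -0.016, 0.12 and -0.11, with -0.083 for assembly chaperones, and moved THOC2 from -1.03 to -0.51. No detection filter moved the activators to -0.013. NFE2L2 turned to 0.11 with dim signals at the limit, by the construction of that setting. The cause of the other shifts was not tested. All alternatives named with the methods were run. No paired analysis was possible because there was 1 array per group.

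Differences under about 0.1 on the log2 scale are near the spread between spots, and dim probes near signals of 14.7 to 15.9 were resolved less. The spread between cultures is unknown.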

Other observations

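Antisense RNAs named after proteasome genes were looked at after their values were seen, and are given as values. The 4 probes of PSMG3-AS1 did not move together. Its brightest probe (chr7:1609856-1609915 of hg19) had a signal of 4723 on the NC array and 4298 on the si-THOC2 array, a log2 fold change of 0.17. The other 3 had log2 fold changes of -0.22, -0.25 and -0.72, the last with signals of 35.8 and 17.5. PSMA3-AS1 had a probe at 301 and 201 (-0.27) and a dim one at 18.4 and 16.7 (0.17), beside 0.09 for PSMA3.

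PSMB8-AS1 and TAP1 share a stretch of chromosome 6. The PSMB8-AS1 probe (chr6:32813210-32813269, plus strand) reads the same interval as the TAP1 probe on the minus strand. The antisense probe went from 61.2 in the NC group to 41.0 (-0.27), where probes of like signal differ between spots by an SD of 0.14. The TAP1 probe had 5973 and 4729 (-0.03). PSMD5-AS1 had measured probes at -0.07 and -0.12, beside -0.12 for PSMD5.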
